A study of Mus musculus with 18 samples.

Results

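The 10 genes described here are acute-phase and NF-kB-responsive inflammatory genes: Lcn2, Saa3, Saa1, Saa2, C3, Cxcl1, Cxcl5, Ccl2, Ccl7 and Il6. They were selected on their counts in these same 6 mRNA libraries, out of 55401 genes in each table, so their KO versus WT difference is given as a description with no test. Gene identifiers were matched to symbols, and each of the 10 symbols was found. The series holds 6 mRNA-seq libraries of NIH/3T3 cells, which are mouse embryonic fibroblasts obtained from ATCC, with 3 libraries labelled WT and 3 labelled XPO4 knockout (KO), and 12 circRNA-seq libraries of the same cells. XPO4 is a nuclear export and import receptor, and the KO cells were made with CRISPR-Cas9, with both copies of the gene carrying an identical edit by the study's methods. The WT libraries are from unedited cells, no treatment is named in the labels of either genotype, and the methods name the usual serum-containing medium. One edited line was therefore compared with its parent, so the effect of the gene and of the line cannot be told apart. Nothing states that the 3 libraries of a genotype came from separate cultures, so the spread between them may be technical.

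The direction of every comparison below rests on the sample titles. The column heading inside all 6 mRNA count tables names the other genotype, while the output name in the same heading follows the title. If the headings held instead of the titles, every direction below would be turned, and the genes given as lower in KO would be higher in it. The targeted gene did not settle this. Xpo4 had 657, 614 and 685 counts in the WT-labelled and 712, 504 and 687 in the KO-labelled libraries, and these values overlapped (log2 fold change 0.18 ± 0.11 SE, edgeR adjusted p = 0.193). Without KO replicate 2, which lay apart from the other KO libraries, the value was 0.34 (edgeR adjusted p = 0.000252). An edit need not change the number of reads of a gene, and the labels do not give the size of this one, so these counts check nothing. The circRNA libraries carry their own labels. Of 41 genes with an mRNA log2 fold change over 2 in size, an adjusted p under 0.05 and at least 10 whole-cell circRNA reads, 25 (61.0%) had circRNA sums that moved the same way as the mRNA. Many of these sums hold few reads, and the others did not move that way, so this count does not settle the direction either. The libraries held between 16974062 and 22057323 counted read pairs.

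The acute-phase response is the rapid change in secreted proteins that follows infection or tissue injury. Cytokines such as interleukin 6 act through gp130, JAK kinases and STAT3, interleukin 1 and tumour necrosis factor act through the IKK complex and NF-kB, and C/EBP factors act together with both at many acute-phase promoters. Hepatocytes make most circulating acute-phase proteins, but fibroblasts also respond to these cytokines and secrete chemokines that recruit neutrophils and monocytes. Inhibitors such as NFKBIA, which holds NF-kB in the cytoplasm, are themselves NF-kB targets and close the loop.

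The stretches before the start sites of 4 of the genes are shown first, because these hold letters that resemble binding sites of the factors named above. Promoter sequences came from RefSeq (GRCm38.p6), which had an entry for 7 of the 10 genes. Cxcl5, Ccl2 and Ccl7 had none, and the stretch of Lcn2, which begins in an exon of the gene as the count tables annotate it, is not shown. Each stretch is written 5′ to 3′ on the strand of the gene and ends at the RefSeq start site or at the first annotated exon base, and capitals mark the matches. The positions are chr5:90890995-90891240, plus strand, for Cxcl1, chr5:30012864-30013113, plus strand, for Il6, chr7:46715701-46715926, minus strand, for Saa3, and chr17:57228137-57228386, minus strand, for C3.
Cxcl1: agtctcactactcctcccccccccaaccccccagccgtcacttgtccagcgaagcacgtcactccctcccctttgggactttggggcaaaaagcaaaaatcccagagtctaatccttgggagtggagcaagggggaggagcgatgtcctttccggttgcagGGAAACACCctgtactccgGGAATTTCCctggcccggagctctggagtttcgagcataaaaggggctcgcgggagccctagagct
Il6: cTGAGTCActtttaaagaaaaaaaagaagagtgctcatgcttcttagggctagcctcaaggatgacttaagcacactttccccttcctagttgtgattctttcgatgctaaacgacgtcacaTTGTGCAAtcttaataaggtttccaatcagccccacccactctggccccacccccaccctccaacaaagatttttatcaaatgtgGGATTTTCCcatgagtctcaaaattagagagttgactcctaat
Saa3: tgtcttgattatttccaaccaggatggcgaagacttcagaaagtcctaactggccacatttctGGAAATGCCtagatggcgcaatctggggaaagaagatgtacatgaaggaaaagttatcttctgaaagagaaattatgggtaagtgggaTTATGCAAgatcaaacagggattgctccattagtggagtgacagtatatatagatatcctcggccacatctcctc
C3: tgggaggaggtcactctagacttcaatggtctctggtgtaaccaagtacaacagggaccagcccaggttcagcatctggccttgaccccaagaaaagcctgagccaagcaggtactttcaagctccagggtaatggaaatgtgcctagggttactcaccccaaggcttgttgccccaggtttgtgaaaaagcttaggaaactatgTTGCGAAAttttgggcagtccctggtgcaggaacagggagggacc

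The letters searched on both strands of the 250 bases before the start were GGNNNTTCC (NF-kB-like), TTGCNNAA (C/EBP-like), TGANTCA (AP-1-like) and TTCNNNGAA (STAT-like). NF-kB-like letters stood in 3 of the 7 promoters, those of Saa3, Cxcl1 and Il6, against 15.7% of 32851 promoters in the table. In Cxcl1 they occurred at 2 places, 89 and 70 bases before the start, and the nearer one read GGAATTTCC, which matches on both strands. In Il6 the match began 43 bases and in Saa3 187 bases before the start. C/EBP-like letters stood in 6 of the 7, all but Cxcl1, against 9.56% of all promoters, with starts 45 bases upstream in C3, 99 in Saa3, 128 in Il6, 182 in Saa1, 183 in Saa2 and 216 in Lcn2. AP-1-like letters were found in Il6 alone of the 7 (6.75% of all promoters) and STAT-like letters in none of them (7.02%). The Saa1 and Saa2 promoters are close in sequence and their matches both read TTGCACAA, so these 2 need not count as independent. Matches of different motifs did not overlap. A match describes letters only, and the 3 genes without an entry were not searched.

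**Figure D1:**
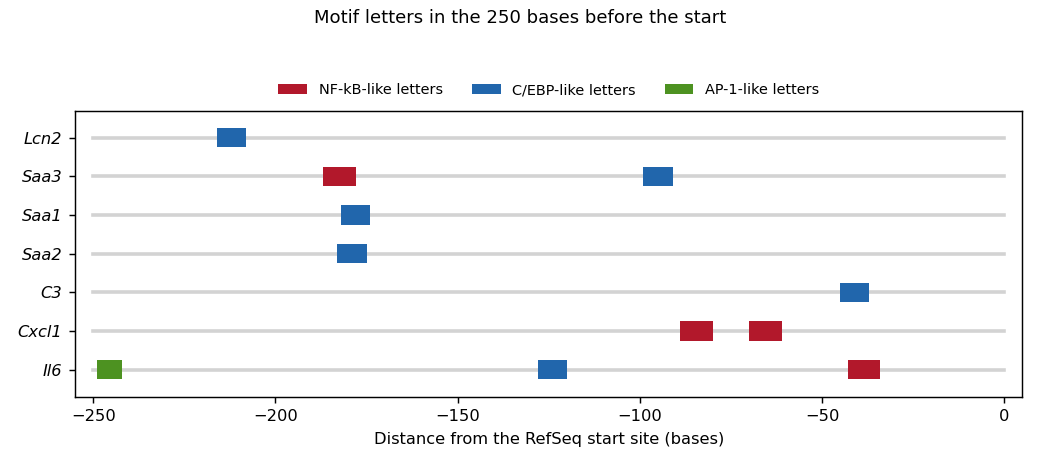
Map of motif letters in the 250 bases before the RefSeq start site of 7 of the genes, with distance from the start in bases on the x axis and one line for each gene. Coloured blocks mark NF-kB-like, C/EBP-like and AP-1-like letters on either strand, and C/EBP-like blocks stand on 6 of the 7 lines.

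Among the acute-phase proteins, Saa3 and Lcn2 were nearly or wholly without counts in the KO-labelled libraries. Saa3 encodes serum amyloid A3, the form of this lipid-binding acute-phase protein that is made outside the liver, and lies at chr7:46711998-46715700 on GRCm38. It had 1363, 1221 and 1538 counts in the WT-labelled and 0, 1 and 3 in the KO-labelled libraries. The groups did not overlap, and all 3 KO values were at or under 3 counts, the limit that a count of 0 allows at a confidence level of 95%. The mean level, in FPKM, which scales counts to exon length and to the total of the library, was 25.7 ± 1.48 in WT against 0.0297 ± 0.0347 in KO (SD, n = 3 each). From the summed counts of 4122 and 4, the WT level was 884 times the KO level, with an exact interval from 345 to 3245 that covers counting error only. KO replicate 3 held 3 of the 4 KO counts, and the fitted log2 fold change of -9.36 was -10.28 without it.

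Lcn2 encodes lipocalin 2, which binds bacterial siderophores and withholds iron, and lies at chr2:32384633-32388252. It had 124, 118 and 135 counts in WT against 0, 0 and 0 in KO. Every WT library was thus far above every KO library, at a modest WT level of 2.34 ± 0.0370 FPKM (SD, n = 3). Against a limit of 3 counts in each KO library, Lcn2 was at least 35.9-fold lower in KO. In a bulk library, fewer cells that make a transcript and less transcript in each cell cannot be told apart, and this holds for each gene below.

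Saa1 and Saa2 encode the serum amyloid A proteins that the liver secretes in large amounts, and they lie next to Saa3 at chr7:46740497-46742980 and chr7:46751790-46754313. Saa1 had no count in any of the 6 libraries. Saa2 had 1 count, in WT replicate 3, and 0 in the other 5. Both genotypes were at or under the limit of 3 counts, so no fold is given, and a difference was not detectable at this depth. Shared sequence was small: 2.11% of the 150-base windows of Saa1 transcripts and 2.03% of those of Saa2 occur in the other gene, and none of the windows of the other 8 genes occur in another gene's transcripts. Neither gene passed the filter on low counts, which 8 of the 10 passed.

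C3, the central complement protein and also an acute-phase protein, was among the abundant genes of the WT-labelled libraries. It lies at chr17:57203970-57228136 and had 8722, 7717 and 9261 counts in WT and 182, 135 and 162 in KO. All KO values were far below all WT values, and the KO libraries varied more among themselves in proportion. The mean level was 81.3 ± 4.23 FPKM in WT against 1.77 ± 0.271 FPKM in KO (SD, n = 3 each), or 2.18% of the WT mean. The fitted log2 fold change was -5.52 ± 0.093 (SE).

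The CXC chemokines Cxcl1 and Cxcl5, ligands of CXCR2 that attract neutrophils, lie in one cluster on chromosome 5. Cxcl5 (chr5:90759360-90761624) had 8886, 8679 and 9807 counts in WT and 202, 202 and 199 in KO. The KO values were nearly identical to each other and did not overlap WT. The mean was 239.0 ± 0.716 FPKM in WT against 6.14 ± 0.132 FPKM in KO (SD, n = 3 each), a ratio of 38.9. Cxcl1 (chr5:90891241-90893115) had 1855, 1752 and 2144 counts in WT and 73, 43 and 58 in KO. Here too the groups stood apart, with KO replicate 2 the lowest. The means were 49.8 ± 2.0 and 1.76 ± 0.456 FPKM (SD, n = 3 each), a ratio of 28.3. The level of Cxcl5 was 4.80 ± 0.192 times that of Cxcl1 within WT libraries and 3.66 ± 0.987 times within KO libraries (FPKM ratio, SD, n = 3), and these ratios overlapped.

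The CC chemokines Ccl2 and Ccl7, ligands of CCR2 that attract monocytes, lie 8259 bases apart on chromosome 11 and were at a larger share of their WT level in KO than the CXC chemokines. Ccl2 (chr11:82035571-82037453) had 5249, 5314 and 6033 counts in WT and 740, 838 and 700 in KO. The KO libraries stayed well below WT but still held at least 700 counts. The means were 237.1 ± 4.54 and 37.9 ± 2.73 FPKM (SD, n = 3 each), a ratio of 6.25. Ccl7 (chr11:82045712-82047525) had 3109, 3100 and 3686 counts in WT and 398, 454 and 416 in KO, again without overlap. Its means were 200.7 ± 7.06 and 30.0 ± 1.93 FPKM (SD, n = 3 each), a ratio of 6.68. The ratio of Ccl2 to Ccl7 was 1.18 ± 0.0279 in WT and 1.26 ± 0.0695 in KO libraries (FPKM ratio, SD, n = 3), so both chemokines were lower by nearly the same factor.

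Il6, the cytokine that drives the acute-phase response through gp130, was low in both genotypes and differed least among the genes fitted. At chr5:30013114-30019981, it had 117, 109 and 133 counts in WT and 24, 24 and 27 in KO. The groups did not overlap. The means were 2.40 ± 0.0942 and 0.587 ± 0.0589 FPKM (SD, n = 3 each), 24.4% in KO, with a fitted log2 fold change of -2.02 ± 0.19 (SE).

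**Figure D2:**
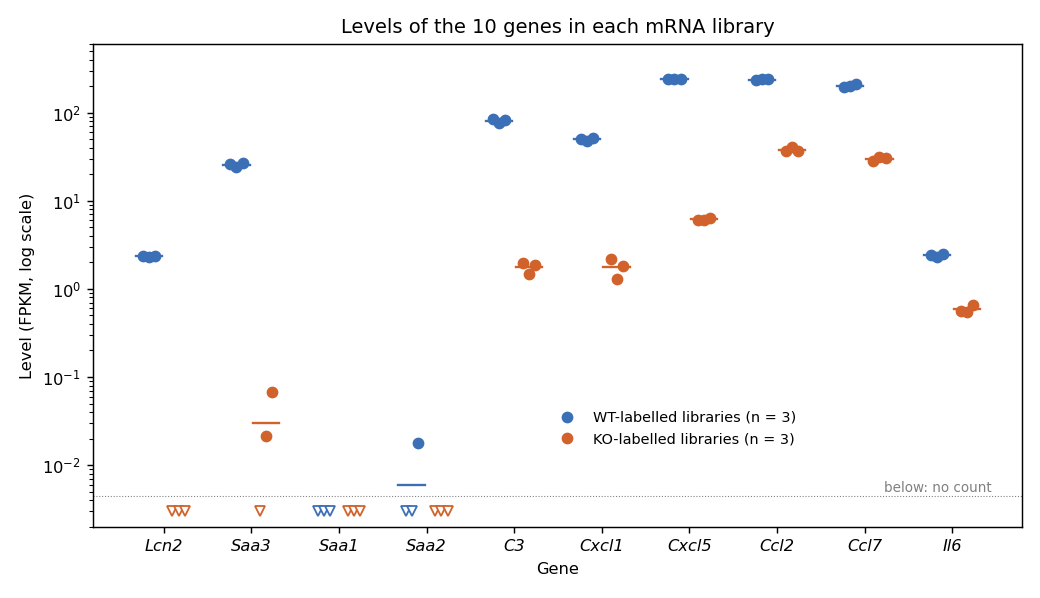
Level of each of the 10 genes in each mRNA library, in FPKM on a log scale, with WT-labelled libraries in blue, KO-labelled libraries in orange and a line at each mean (n = 3). Open triangles mark libraries with no count. The WT points of 8 genes lie above all of their KO points, and Saa1 and Saa2 lie at the bottom in both genotypes.

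By level, the genes stood in WT in the order Cxcl5, Ccl2, Ccl7, C3, Cxcl1, Saa3, Il6, Lcn2, Saa2 and Saa1. Library values of neighbours in this order overlapped for Cxcl5 and Ccl2, for Il6 and Lcn2, and for Saa2 and Saa1, and not for the others. In KO the order was Ccl2, Ccl7, Cxcl5, C3, Cxcl1, Il6 and Saa3, followed by the 3 genes without counts, and C3 and Cxcl1 overlapped. Cxcl5, Ccl2 and Ccl7 ranked 162, 163 and 203 by FPKM among all genes in WT, and Ccl2 ranked 1438 and Cxcl5 7195 in KO. The 10 genes together took 1480, 1434 and 1484 CPM in the WT and 90.9, 94.7 and 92.2 in the KO libraries. Ccl2 and Ccl7 made up 52.2% ± 0.824 of their summed FPKM in WT and 86.8% ± 1.57 in KO (SD, n = 3), with Cxcl5, C3, Cxcl1 and Saa3 lower by larger factors.

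All 8 genes that passed the filter had every KO library below every WT library, which 28.7% of the 14688 genes tested also did. Nothing is read from that count, since the genes were selected on this contrast. Their log2 fold changes ran from -9.36 for Saa3 to -2.02 for Il6, with a median of -5.05, or -4.99 with Lcn2 placed at its bound, beside a median of -0.0029 over all genes tested. The steps between C3, Cxcl5 and Cxcl1 (-5.52, -5.28 and -4.81) were small beside the step to Ccl7 (-2.74 ± 0.068 SE) and Ccl2 (-2.64 ± 0.066 SE).

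The genes whose profiles lay nearest were found by the Euclidean distance between log2 CPM over the 6 libraries, each centred on its own mean, among 14687 other genes. As the profiles hold 2 groups, they mostly match the size of the difference, and no test is given. Lcn2 lay nearest to Steap4, a metalloreductase gene with 92, 93 and 113 counts in WT and none in KO, then to Serpina3h and Chil1. Saa3 lay nearest to Lcn2, at a larger distance (3.14) than any other first neighbour. C3 lay nearest to Cxcl5 (0.446), then to Mybph, and the 3 nearest profiles of Cxcl5 included C3 and Gm35048. Cxcl1 had Gm18757 nearest (0.166), ahead of Gm5075 and Cxcl5. Ccl2 lay nearest to Fas, the death receptor gene (0.089), then to Slpi, a secreted protease inhibitor, and Ccl7. Fas had 1074, 1088 and 1225 counts in WT and 155, 162 and 139 in KO. Ccl7 lay nearest to Ccl2, Fas and H19. Il6 lay nearest to C4b (0.138), Serpina3n and Nlrp4e.

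Within 100 kilobases of the 10 genes, 25 other genes were tested, of which 5 were lower (20%) and 7 higher (28%) in KO, near the 23.6% and 25.1% of all genes tested. Ppbp, a CXC chemokine gene 6894 bases from Cxcl5, had 78, 56 and 61 counts in WT and 10, 12 and 12 in KO, without overlap (log2 fold change -2.26 ± 0.28 SE, edgeR adjusted p = 1.83e-05). Saal1, which lies 1318 bases from Saa3, differed by -0.43 ± 0.080 (log2, SE, edgeR adjusted p = 0.000581). Ciz1, 3663 bases from Lcn2, did not pass the test (-0.14 ± 0.065, log2, SE, edgeR adjusted p = 0.104), and Dnm1, 31295 bases from it, was higher in KO (0.66 ± 0.057, log2, SE, edgeR adjusted p = 7.71e-07). These 4 were named after their values were seen.

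To describe the pathway around the 10 genes, 236 further genes in 12 lists were examined, none of them one of the 10. The lists were chosen with earlier results of these data known, so their shares are a description and not an independent test. A symbol was matched for 235, 158 passed the filter on low counts and 36 had no count in any library. Of the 158, 77 were lower and 29 higher in KO by edgeR's quasi-likelihood test (adjusted p below 0.05, Benjamini-Hochberg over all genes), 48.7% and 18.4%. Over all 14688 genes tested, 23.6% were lower and 25.1% higher. The median log2 fold change was -0.22 for the 158 and -0.0029 for all genes. Without KO replicate 2, 78 were lower and 33 higher. With the groups not overlapping and a log2 fold change of at least 1 in size as well, 33 were lower and 7 higher, 20.9% and 4.43% of the 158, against 5.16% and 4.22% of all genes tested.

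**Figure D3:**
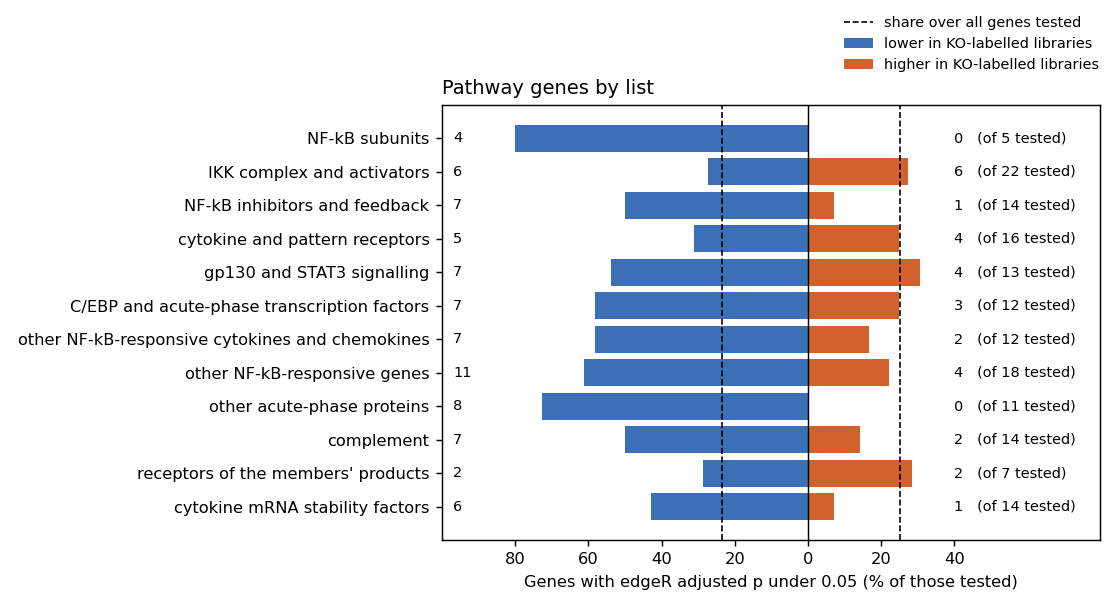
Share of the tested genes of each of the 12 lists that were lower (blue, left) or higher (orange, right) in the KO-labelled libraries at an edgeR adjusted p under 0.05, in percent, with gene numbers beside the bars. Dashed lines mark the shares over all genes tested, 23.6% lower and 25.1% higher, and the NF-kB subunits and other acute-phase proteins have no gene on the right. The lists were chosen with earlier results of these data known.

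Of the 5 genes for NF-kB subunits, 4 were lower and none higher in KO. Relb, the partner of NFKB2 in the non-canonical pathway, had 1484, 1553 and 1685 counts in WT and 476, 519 and 430 in KO, which did not overlap (log2 fold change -1.51 ± 0.070 SE, edgeR adjusted p = 1.72e-09). The other subunits differed by less. Nfkb1, the p50 precursor, was lower by a log2 fold change of -0.57 ± 0.069 (SE, edgeR adjusted p = 1.51e-05). Nfkb2 differed by -0.39 ± 0.053 (log2, SE, edgeR adjusted p = 4.33e-05). Rela, the p65 subunit, fell from 42.7 ± 1.02 to 36.1 ± 0.745 FPKM (SD, n = 3; log2 fold change -0.24, edgeR adjusted p = 0.00187). Rel did not pass the test (0.06 ± 0.12, log2, SE, edgeR adjusted p = 0.708).

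Of 22 genes tested for the IKK complex and its activators, 6 were lower and 6 higher, near the shares over all genes, with a median log2 fold change of 0.03. The gene that met the rule for naming was Irak2, a kinase-like adaptor of the interleukin 1 and Toll-like receptors, which was 2.78-fold higher in KO (1.05 ± 0.104 and 2.93 ± 0.106 FPKM, SD, n = 3; edgeR adjusted p = 5.77e-07). Among 16 cytokine and pattern receptors, 5 were lower and 4 higher, 31.25% and 25.0%, beside 23.6% and 25.1% over all genes tested. The interleukin 1 receptor Il1r1 had 4319, 4157 and 4535 counts in WT and 1914, 1748 and 1848 in KO (log2 fold change -1.02 ± 0.058 SE, edgeR adjusted p = 1.16e-08), so its groups did not overlap.

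The inhibitors and feedback genes, many of which NF-kB itself induces, were lower in 7 of 14 and higher in 1. Nfkbiz, the nuclear inhibitor-like cofactor needed for Il6 and Lcn2 induction, had 2067, 1739 and 2107 counts in WT and 257, 219 and 284 in KO (log2 fold change -2.74 ± 0.097 SE, edgeR adjusted p = 1.24e-10). Tnfaip3, the A20 ubiquitin-editing enzyme, differed by -2.65 ± 0.17 (log2, SE, edgeR adjusted p = 2.98e-08). Bcl3, another nuclear cofactor, was at 25.9 ± 1.08 FPKM in WT and 6.47 ± 0.650 in KO (SD, n = 3; edgeR adjusted p = 4.40e-10). Nfkbia, the classical inhibitor, was 3.37-fold lower in KO, with means of 86.5 ± 1.66 and 25.7 ± 2.47 FPKM (SD, n = 3; edgeR adjusted p = 5.12e-10). The groups did not overlap for any of these 4. Irak3, an inhibitor of Toll-like receptor signalling that is otherwise typical of macrophages, went the other way, with 4, 4 and 3 counts in WT and 70, 37 and 43 in KO (log2 fold change 3.80 ± 0.40 SE, edgeR adjusted p = 4.11e-06).

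Of 13 genes tested in the gp130 and STAT3 list, 7 were lower and 4 higher in KO, 53.85% and 30.77%. Over all genes tested these shares were 23.6% and 25.1%. With the limits on overlap and size as well, 3 were lower and none higher. Of the signal-transducing receptor chains, Lifr was lower, at 4395, 4239 and 4490 counts in WT and 902, 749 and 901 in KO (log2 fold change -2.14 ± 0.078 SE, edgeR adjusted p = 1.79e-10). Osmr, the oncostatin M receptor, differed by -1.62 ± 0.054 (log2, SE, edgeR adjusted p = 6.89e-11). Il6st, which encodes gp130, differed by -0.86 ± 0.085 (log2, SE, edgeR adjusted p = 2.44e-06). The feedback inhibitor Socs3, a STAT3 target, was at 42.1 ± 1.13 FPKM in WT and 16.2 ± 0.352 in KO (SD, n = 3; edgeR adjusted p = 5.12e-10), without overlap.

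The signal carriers of that list moved less. Jak1 differed by -0.37 ± 0.054 (log2, SE, edgeR adjusted p = 8.65e-05), Jak2 by -0.20 ± 0.059 (edgeR adjusted p = 0.0136) and Stat3 by -0.19 ± 0.056 (edgeR adjusted p = 0.0143, or 0.0732 without WT replicate 1). The other 4 that passed were higher. Il6ra, the interleukin 6 receptor chain, rose by 0.57 ± 0.088 (log2, SE, edgeR adjusted p = 0.000137), Tyk2 by 0.42 ± 0.074 (edgeR adjusted p = 0.000415), Pias3, an inhibitor of STAT3, by 0.36 ± 0.064 (edgeR adjusted p = 0.000382) and the cytokine Clcf1 by 0.19 ± 0.053 (edgeR adjusted p = 0.00966, or 0.0503 without WT replicate 2). Of the other gp130 ligands, Lif (-0.44 ± 0.19, log2, SE, edgeR adjusted p = 0.0801) and Il11 (0.03 ± 0.11, edgeR adjusted p = 0.827) did not pass the test, and Osm had no count.

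Of 12 tested C/EBP and other acute-phase transcription factor genes, 7 were lower and 3 higher, with a median log2 fold change of -0.56. Klf4 was at 25.5 ± 1.56 FPKM in WT and 11.3 ± 0.0198 in KO (SD, n = 3; edgeR adjusted p = 8.84e-09). Atf3, a stress-induced factor, differed by -1.18 ± 0.18 (log2, SE, edgeR adjusted p = 0.000121), and Fos, an AP-1 subunit, by 1.08 ± 0.14 (log2, SE, edgeR adjusted p = 2.25e-05). Fos was low, at 1.96 FPKM in WT and 4.15 in KO. The more abundant AP-1 subunit genes Junb, Jun and Fosl2 were lower in KO (log2 fold changes -0.83, -0.70 and -0.63). They lay under the size set for naming, and Fosl1 and Jund did not pass the test. Cebpb and Cebpd, both tied to the acute phase, were lower by a log2 fold change of -0.69 and -0.49 and lay under the size set for naming.

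Of the 11 tested genes for other acute-phase proteins, 8 were lower and none higher, with a median log2 fold change of -1.20. Most encode secreted proteins, but the list also holds Mt1 and Mt2, which encode metallothioneins of the cell interior, and Mt2 was among the 8. Serpina3f, a member of the antichymotrypsin family, had 267, 264 and 253 counts in WT and 7, 3 and 5 in KO (log2 fold change -5.37 ± 0.23 SE, edgeR adjusted p = 7.38e-10). Hp, haptoglobin, had 300, 352 and 371 counts in WT and 10, 27 and 13 in KO (log2 fold change -4.10 ± 0.22 SE, edgeR adjusted p = 6.46e-09). Both had no overlap between the groups. Serpina3g was 12.0-fold and the abundant Serpina3n 4.12-fold lower in KO, Serpina3n with 96.3 ± 0.561 and 23.4 ± 0.655 FPKM (SD, n = 3; edgeR adjusted p = 1.20e-11). The Serpina3 genes are close relatives, but none of the 150-base windows of these 3 occurred in another gene. Of the 30 genes listed, 10 had no count, among them the liver proteins albumin, transthyretin and C-reactive protein.

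In the complement list, 7 of 14 tested genes were lower and 2 higher. C4b, which acts with C3 in the classical pathway, had 590, 539 and 690 counts in WT and 131, 120 and 130 in KO (log2 fold change -2.03 ± 0.096 SE, edgeR adjusted p = 2.31e-09), and 7.48% of its windows are shared with C4a. C1s1, a protease of the C1 complex, was 2.33-fold lower (127.7 ± 4.77 and 54.9 ± 3.59 FPKM, SD, n = 3; edgeR adjusted p = 2.68e-09). Serping1, the C1 inhibitor, was low in both and differed by -2.21 ± 0.38 (log2, SE, edgeR adjusted p = 0.00037). C1rb is uncertain, since 32.6% of its windows are shared with C1ra and WT replicate 3 had 486 counts against 171 and 129 in the others. Its log2 fold change was -1.30 ± 0.36 (SE, edgeR adjusted p = 0.00924), or -0.57 without that library (edgeR adjusted p = 0.0312). Cd55, which protects cells from complement, was 2.31-fold higher in KO (edgeR adjusted p = 3.46e-05).

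Of 28 other NF-kB-responsive cytokine and chemokine genes, 12 could be tested, and 7 were lower and 2 higher. Cxcl12, a homeostatic chemokine of fibroblasts, had 7531, 6923 and 7618 counts in WT and 2522, 2555 and 2548 in KO (log2 fold change -1.31 ± 0.056 SE, edgeR adjusted p = 8.03e-10). Cxcl10, a ligand of CXCR3, had 88, 87 and 129 in WT and 18, 21 and 16 in KO (edgeR adjusted p = 3.91e-06). Ccl5 had 45, 54 and 43 in WT and 1, 0 and 3 in KO (log2 fold change -4.52 ± 0.49 SE, edgeR adjusted p = 6.48e-06), and its log2 fold change was -5.44 without KO replicate 3. Each of these stood apart between the genotypes. Csf3, the granulocyte growth factor, had 34, 27 and 42 counts in WT and 5, 1 and 0 in KO (log2 fold change -3.60, edgeR adjusted p = 9.24e-05), and its log2 fold change was -4.95 without KO replicate 1. Ccl9 rose, from 32, 22 and 19 counts in WT to 133, 126 and 120 in KO (log2 fold change 2.57 ± 0.21 SE, edgeR adjusted p = 4.73e-07). The genes for tumour necrosis factor and interleukin 1 were near the limit of detection. Tnf had 2 counts over all 6 libraries and Il1b none. Il1a had 5, 0 and 2 counts in WT and 0, 1 and 3 in KO. The related cytokine Il18 was detected, at 16.1 ± 0.530 FPKM in WT and 13.6 ± 1.78 in KO (SD, n = 3; edgeR adjusted p = 0.0684). Il33 was low, at 0.208 and 0.277 FPKM (edgeR adjusted p = 0.363).

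Among 18 tested other NF-kB-responsive genes, 11 were lower and 4 higher, 61.1% and 22.2%, beside 23.6% and 25.1% over all genes tested. Steap4, given above as the nearest profile to Lcn2, was at least 28.3-fold lower in KO against a limit of 3 counts in each library (edgeR adjusted p = 1.18e-07). Mmp9, a gelatinase, had 863, 879 and 946 counts in WT and 174, 168 and 171 in KO (log2 fold change -2.17 ± 0.077 SE, edgeR adjusted p = 1.33e-10). Sod2, the mitochondrial superoxide dismutase, was 2.13-fold lower (edgeR adjusted p = 6.89e-09). Ptgs2, which encodes cyclooxygenase 2, was among the 4 that were higher (log2 fold change 0.64). None of these 4 met the rule for naming.

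Most receptors of the products of the 10 genes were not detected enough to test. Of 21 genes, 7 were tested, with 2 lower and 2 higher (28.6% each, near the shares over all genes), and 5 had no count. Cxcr1 had 24, 30 and 30 counts in WT and 8, 5 and 7 in KO (log2 fold change -1.78 ± 0.35 SE, edgeR adjusted p = 0.000843). Itgb2 and Fpr1, both best known from leukocytes, were higher in KO at low levels of 1.40 ± 0.352 and 0.797 ± 0.303 FPKM (SD, n = 3; edgeR adjusted p = 0.000658 and 0.00723). Cxcr2 and Ccr2, the main receptors of the CXC and CC chemokines above, had 1 and 0 counts over all libraries. Of 14 cytokine mRNA stability factors, 6 were lower and 1 higher. The higher gene was Zfp36 (log2 fold change 0.64 ± 0.073 SE, edgeR adjusted p = 9.29e-06), under the size set for naming. Zc3h12a encodes Regnase-1, a nuclease that degrades Il6 mRNA. It was 2.60-fold lower in KO, with means of 14.9 ± 0.572 and 5.73 ± 0.243 FPKM (SD, n = 3; edgeR adjusted p = 6.17e-09). The part of these factors in the level of Il6 was not tested.

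**Figure D4:**
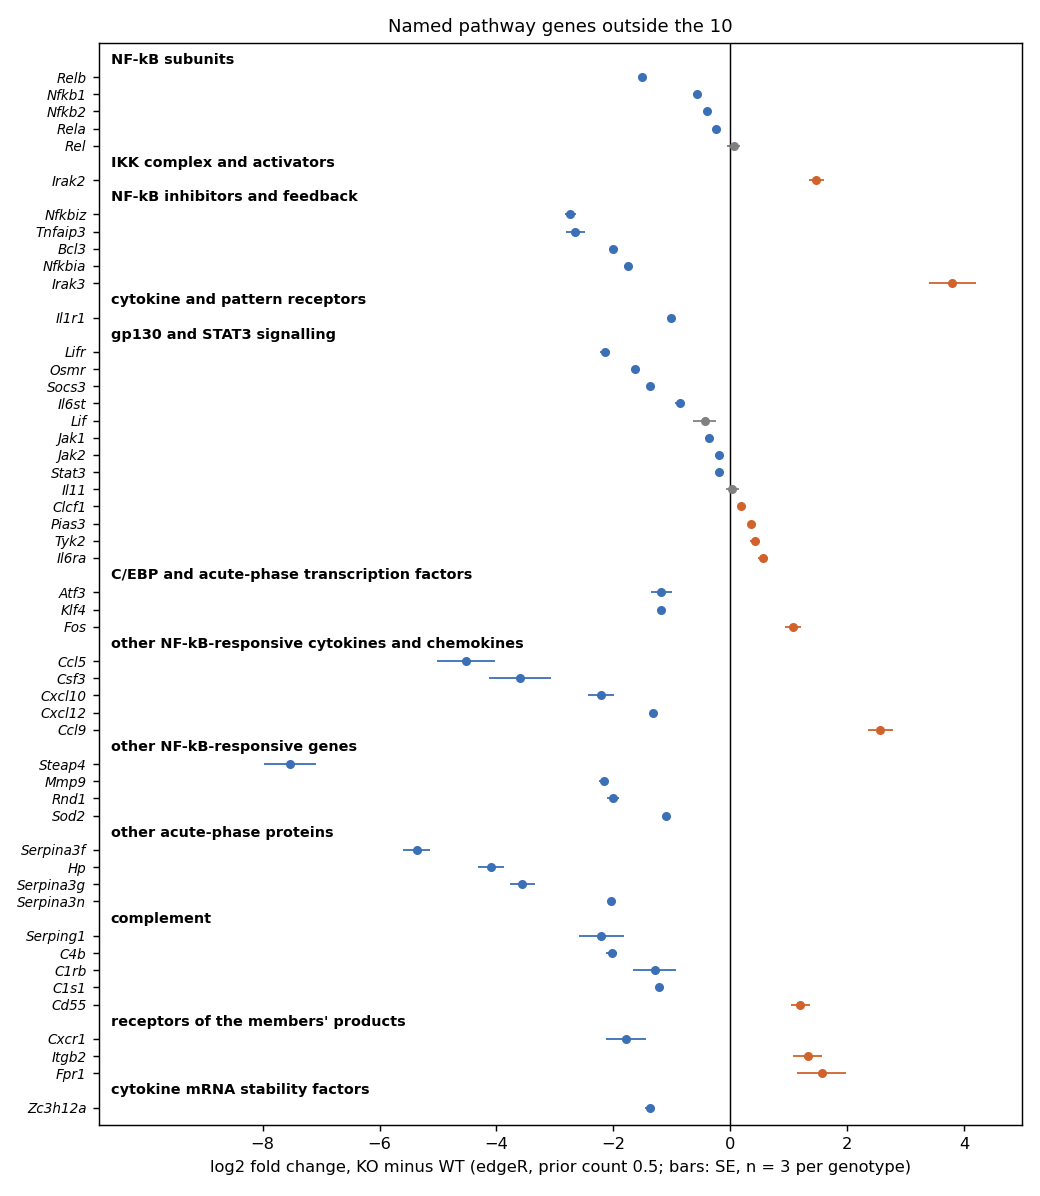
Log2 fold change (KO minus WT, with SE bars, n = 3 per genotype) of the 50 named pathway genes that could be tested, by list. Blue points are lower and orange points higher in the KO-labelled libraries at an edgeR adjusted p under 0.05, and grey points did not pass. Steap4 and Serpina3f lie farthest to the left and Irak3 farthest to the right. Steap4 had no count in the KO-labelled libraries, so its position depends on the prior count of 0.5.

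The libraries were checked for markers of other cells, also because the protocol in the labels speaks of peripheral blood. All 12 fibroblast markers were above 1 FPKM, with sums between 2851 and 3001 in WT and between 2810 and 3025 in KO. Of 12 macrophage markers, Cd14 and Cd68 were above 1 FPKM, and the summed level was 11.5 to 13.5 FPKM in WT and 9.42 to 11.2 in KO, and these ranges did not overlap. Cd14 and Cd68 made up most of that sum. Cd68 had a mean of 4.75 FPKM in WT and 2.90 in KO, and Cd14 overlapped between the genotypes (edgeR adjusted p = 0.221). Of the others, Ptprc (0.282 and 0.0816 FPKM) was lower on average in KO, while Lyz2 (0.0742 and 0.492) and Aif1 (0.624 and 0.870) were higher, and Csf1r was at 0.343 and 0.336. Over all libraries Adgre1 had 2 counts, Itgam 1 and C1qa none. The part of these markers in the results above was not tested. No marker of neutrophils (0.217 to 0.588 FPKM summed in WT, 0.148 to 0.313 in KO), hepatocytes (0.0299 to 0.0912 and 0.128 to 0.340), epithelium (0.205 to 0.578 and 0.241 to 0.343) or endothelium (0.581 to 0.774 and 0.369 to 0.553) was above 1 FPKM. Blood lymphocyte and red cell markers summed to 0.351 to 0.458 FPKM in WT and 0.817 to 0.883 in KO, with the alpha globin Hba-a1 at 0 in WT and a mean of 0.490 FPKM in KO (21 counts). In the same list Ms4a1, Cd3e and the beta globins Hbb-bs and Hbb-bt were at 0. Elane, Mpo, Ly6g and S100a9 of the neutrophil list and Alb and Ttr of the hepatocyte list were at 0 as well. Other markers of these lists had counts. S100a8 was at 0.342 FPKM in WT and 0.0283 in KO, and Camp at 0.0225 and 0.199. Of the hepatocyte list, Afp (0.0449 and 0.0732) and Serpina1a (0.00825 and 0.0825) were higher on average in KO. The hepatocyte, endothelial and blood sums, all low, did not overlap between the genotypes.

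The circRNA libraries gave a second readout that was not used to select the genes. No circRNA with both ends inside any of the 10 genes was listed in the 12 libraries, whose totals were between 50341 and 81941 junction reads in whole-cell and cytoplasmic and between 2189 and 4383 in nuclear RNA. Of 235 pathway genes, 53 had a circRNA, with 4793 reads in all. For Nfkb1, the WT whole-cell libraries held 81 and 81 reads against 51 and 42 in KO, lower in KO like its mRNA. The cytoplasmic libraries held 135 and 157 against 51 and 109, but per 1000 junction reads of the library these were 1.73 and 1.92 against 1.01 and 1.72, so KO replicate 2 was level with WT replicate 1. Osmr went against its mRNA in whole cells, with 15 and 7 reads in WT against 31 and 35 in KO, and in the cytoplasm had 63 and 58 against 25 and 35 (0.810 and 0.708 against 0.494 and 0.553 per 1000 junction reads). Il6st had 9 and 8 whole-cell reads in WT against 19 and 17 in KO, and none of its circRNAs was listed in the fractions. A circRNA that is not listed for a compartment need not be absent from it. Sums of different compartments may also cover different circRNAs. With 2 libraries in each group no test was made.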

How the data were processed

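The mRNA-seq data comprised 6 libraries of NIH/3T3 cells, 3 WT and 3 XPO4 KO by title, and 12 circRNA-seq libraries. The authors aligned reads with HISAT2 to mm10 and deposited counts of read pairs per gene from featureCounts (version 2.0.0), without normalization. For circRNA-seq the authors deposited counts of junction reads per circRNA, and 7 circRNAs listed under several positions were left out. Reads were paired-end and 150 nt long, and the counting was unstranded. FPKM was computed from these counts, the exon length in the tables and the total counted pairs.

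Counts were fitted with edgeR (version 4.0.16, R 4.3.3; glmQLFit, TMM, filterByExpr, prior count 0.5) and adjusted by Benjamini-Hochberg over 14688 genes at a threshold of 0.05. The fit was tested on simulated counts first. The common biological coefficient of variation was 6.74%. The 10 genes and the lists were chosen with earlier results of these data known. Named pathway genes had an adjusted p under 0.05, no overlap and a log2 fold change of at least 1 in size, up to 4 per list and direction, and the NF-kB subunit and gp130 lists were named in full. Up to 3 nearest profiles were named for each of the 10 genes. Genes named outside these rules, such as Cebpb, Cebpd and Ptgs2, were picked after their values were seen. Some genes that these rules name are not reported here. Intervals and limits cover counting error only, since no molecular identifiers are named. Alternatives were DESeq2 (version 1.42.0), other scalings, no filter, other prior counts, TPM, a replicate block and leaving out each library. Protein sequences were not used here.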

Additional observations from a re-analysis of the deposited data

How the results depend on the processing

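Under RLE size factors, no scaling, no low-count filter, DESeq2, other prior counts, a replicate block and each library left out in turn, all 104 log2 fold changes of the 8 genes fitted stayed below 0. Their median lay between -5.13 and -4.95 with a library left out, and was -4.81 without the filter, which adds Saa2. The size for genes at or near 0 in KO depended on the setting. Lcn2 was at -5.89 with a prior count of 2, -9.87 with a prior count below 0.5 and -9.20 with DESeq2, and Saa3 at -8.53 with a prior count of 2, -9.79 with DESeq2, and -8.89 and -10.28 without KO replicate 1 or 3. The order of levels was the same in TPM. Saa1 and Saa2 together had 1 count, too few to pass the filter. The pathway genes lower in KO numbered 70 to 80 over all alternatives and those higher 25 to 33. Stat3 no longer passed without WT replicate 1 (edgeR adjusted p = 0.0732), nor did Clcf1 without WT replicate 2 (edgeR adjusted p = 0.0503). Xpo4 ranged between 0.10 and 0.34 with a library left out. Same-numbered libraries did not deviate together (correlations 0.0486, 0.0241 and -0.0746), and with the number as a replicate block 75 pathway genes were lower and 29 higher. KO replicate 2 differed from the other KO libraries by a chi-square per gene of 9.74 and 11.3, against 2.92 to 4.65 for other pairs, and no pair of replicates agreed within sampling noise. Depth limits Saa1, Saa2 and most receptors.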
